A study of Mus musculus with 57 samples.

Results

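Microglia of P2ry12 knockout (KO) mice were compared with and without lipopolysaccharide (LPS) in 16 libraries, 8 of KO mice given LPS and 8 of KO mice whose labels read ns, out of 57 samples in the series and 33 in the LPS experiment. The libraries were chosen by their labels and library names, which place 4 of each group in each of 2 library sets. RNA came from CD11b-positive cells of the brain of adult KO animals, littermates of wild-type (WT) mice in the same study, and polyadenylated RNA was sequenced. Animals of the LPS group received 1 mg/kg of this component of the outer wall of Gram-negative bacteria by intraperitoneal injection. What ns stands for is not stated, and the labels give no time between injection and tissue collection, and do not describe the KO allele. CD11b is carried by macrophages, neutrophils, monocytes and NK cells as well as by microglia, so the gate alone does not separate these cells. The labels do not say that each library is 1 animal. If libraries share animals, the p-values measure a spread that is partly technical. The comparison asks which genes differ between KO LPS and KO ns across the genome.

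P2ry12 encodes P2Y12, a receptor for adenosine diphosphate that couples to inhibitory G proteins and guides microglial processes towards damaged cells. It is among the genes that mark resting microglia and is lowered when microglia become inflamed. LPS bound to CD14 and the TLR4 and MD-2 complex signals through MyD88 to NF-kappaB, the factor behind many cytokine genes, and through TRIF to interferon regulatory factors and type I interferon, which in turn induces interferon-stimulated genes. LPS given into the peritoneum reaches the brain largely through signals from the periphery, so a response in microglia is not shown to be a direct one.

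The targeted gene was measured first. P2ry12 was at 579 to 1362 CPM with a median of 629 in KO ns and at 82.9 to 177 CPM with a median of 98.5 in KO LPS. CPM is the count of a gene scaled to a common library total (1 M counts) after TMM normalization. Counts therefore remained in all 16 KO libraries, and counts per gene do not show which exons they cover. P2ry12 and P2ry13 lie within Med12l, and the strand setting of the counting is not given in the sources used here, so reads of overlapping genes cannot be told apart. On a scale shared by all 33 libraries, P2ry12 was at 587 to 1244 CPM in KO ns and 84.4 to 154 in KO LPS. The libraries labelled WT ns ran from 482 to 5419.7 and those labelled WT LPS from 397 to 12169.9, so the genotypes overlapped as labelled. Without the WT libraries of library number 2, WT ns was at 3524 to 5419.7 and WT LPS at 397 to 1065. Of 29 tested genes of resting microglia, 17 fell with LPS and 1 rose in 16 libraries, as given below. Neither Csf1r nor Cx3cr1 was among them. Csf1r was at 9800.2 ± 2659 CPM (SD, n = 8) in KO ns and 8755 ± 2600.0 in KO LPS. Cx3cr1 was at 2873 ± 937 and 2540.4 ± 447 CPM.

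Depth was 18.0 to 45.3 M counts per library. The libraries KO ns 5, KO ns 6 and KO LPS 5, all of set 2, stood apart from the other 13. Mitochondrially encoded genes took 2.69%, 8.55% and 5.62% of their counts, against 1.22% to 1.79% in the others. On the first principal component, with 49.2% of the variance, they were at 86.6, 161.8 and 169.8, against -38.7 to -22.7. The second component, with 26.5%, placed all 8 KO ns libraries at 41.1 to 59.1 and all 8 KO LPS libraries at -68.0 to -40.4. Xist was at 0.837 to 2.10 CPM in set 1 and 861 to 3095 in set 2, and the Y-linked gene Ddx3y at 93.8 to 125 and 0 to 0.293. The labels give no sex for these libraries, but by these transcripts set 1 reads as male and set 2 as female. Library set and sex therefore cannot be told apart. Counts of list members are also given for the 13 libraries, a setting chosen after seeing the data.

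**Figure D1:**
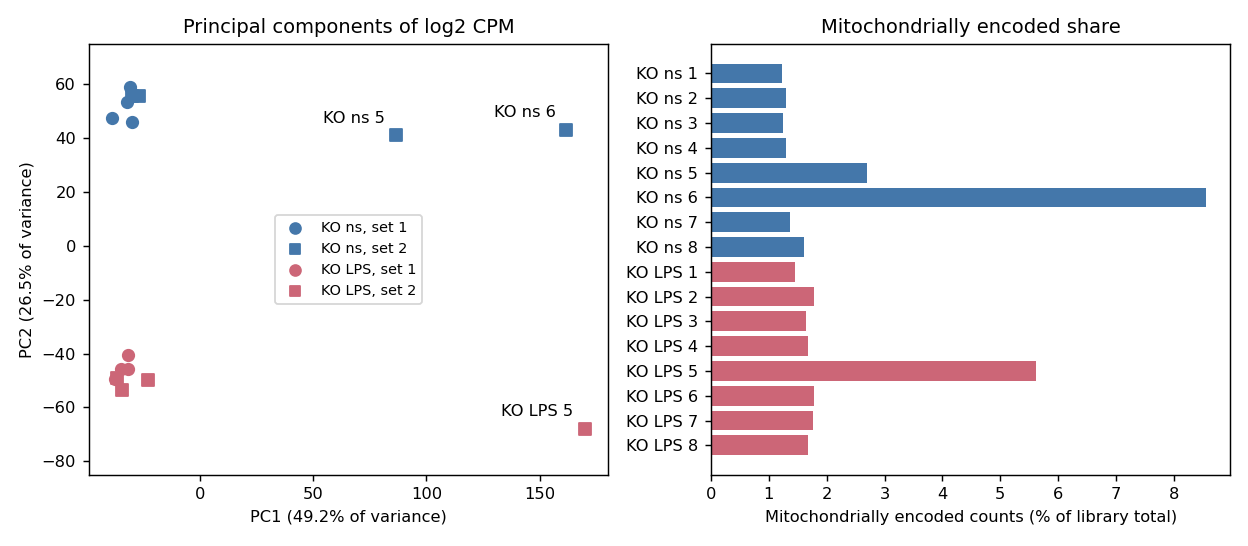
The left panel plots the 16 libraries on the first and second principal components of log2 CPM, coloured by group and shaped by library set. The right panel gives mitochondrially encoded counts as a percent of each library total, which reach 8.55% in KO ns 6 and stay between 1.22% and 1.79% in the 13 libraries that do not stand apart.

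LPS changed 3534 of 14796 genes tested in KO microglia (edgeR's quasi-likelihood test, Benjamini-Hochberg adjusted p under 0.05), 1780 higher and 1754 lower. These calls are 12.0% and 11.9% of the genes tested. A log2 fold change of at least 1 was reached by 913 of the higher and 1037 of the lower genes. In 566 genes (3.83%) every KO LPS library was above every KO ns library, and in 540 genes (3.65%) every one was below. The median over all genes tested was 0.02 on the log2 scale. In the 13 libraries 8832 of 14966 genes were called, 4620 higher (30.9%) and 4212 lower (28.1%). Of 3527 calls that could be tested there, 3497 were called again in the same direction. The biological coefficient of variation, the spread between libraries beyond counting error, was 41.6% over 16 libraries and 19.3% over 13.

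Among called genes with a mean of at least 5 CPM and 1 direction in both sets, the largest rises were in a scavenger receptor and an acute-phase protein. Predicted genes and pseudogenes were left out. Marco, a receptor that binds bacteria and particles, was at 0.264 to 0.833 CPM with a median of 0.737 in KO ns and at 557 to 1053 CPM with a median of 624 in KO LPS. Saa3, a serum amyloid A protein made in inflammation, was at 0.817 to 3.07 CPM with a median of 1.67 and at 1019 to 4237 CPM with a median of 1293. In both genes every KO LPS library was far above every KO ns library. The log2 fold changes (± SE) were 10.06 ± 0.29 for Marco (adjusted p 1.48e-12) and 9.87 ± 0.39 for Saa3 (adjusted p 9.87e-11), or 1069-fold and 939-fold. The highest Saa3 level was in KO LPS 5, and over the 13 libraries its log2 fold change was 9.57. Counts of Marco were 6 to 36 per KO ns library, so the size of its fold rests on few counts.

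Among the 10 largest rises were also Adamtsl4 (6.57 ± 0.71), the surface protein Plet1 (6.44 ± 0.69), the endothelial lipase gene Lipg (6.44 ± 0.66), the B cell chemoattractant Cxcl13 (6.43 ± 0.59) and Strip2 (5.85 ± 0.84). They were completed by Acod1 (5.67 ± 0.42), which makes itaconate from cis-aconitate, the kinase gene Ikbke (5.49 ± 0.47) and Susd2 (5.42 ± 0.50). In all 10 the groups did not overlap. Adamtsl4 and Susd2 were far lower in KO LPS 5, at 3.28 and 2.44 CPM, than the means of 192 and 14.7 over the group. For Adamtsl4 the highest KO ns library was at 3.27 CPM, so its groups were barely apart. Of the acute-phase and antimicrobial list, 4 of 9 tested members rose and 0 fell, with a median of 1.31. Cp, which encodes the copper protein ceruloplasmin, rose from 20.8 ± 7.58 to 343 ± 202 CPM (4.07 ± 0.27, adjusted p 4.15e-08). Lcn2, which encodes a protein that captures bacterial iron carriers, rose by 2.13 ± 0.67 (adjusted p 0.0284). Camp and Hp, transcripts of neutrophils and monocytes that are also on this list, were not called (adjusted p 0.0558 and 0.189).

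**Figure D2:**
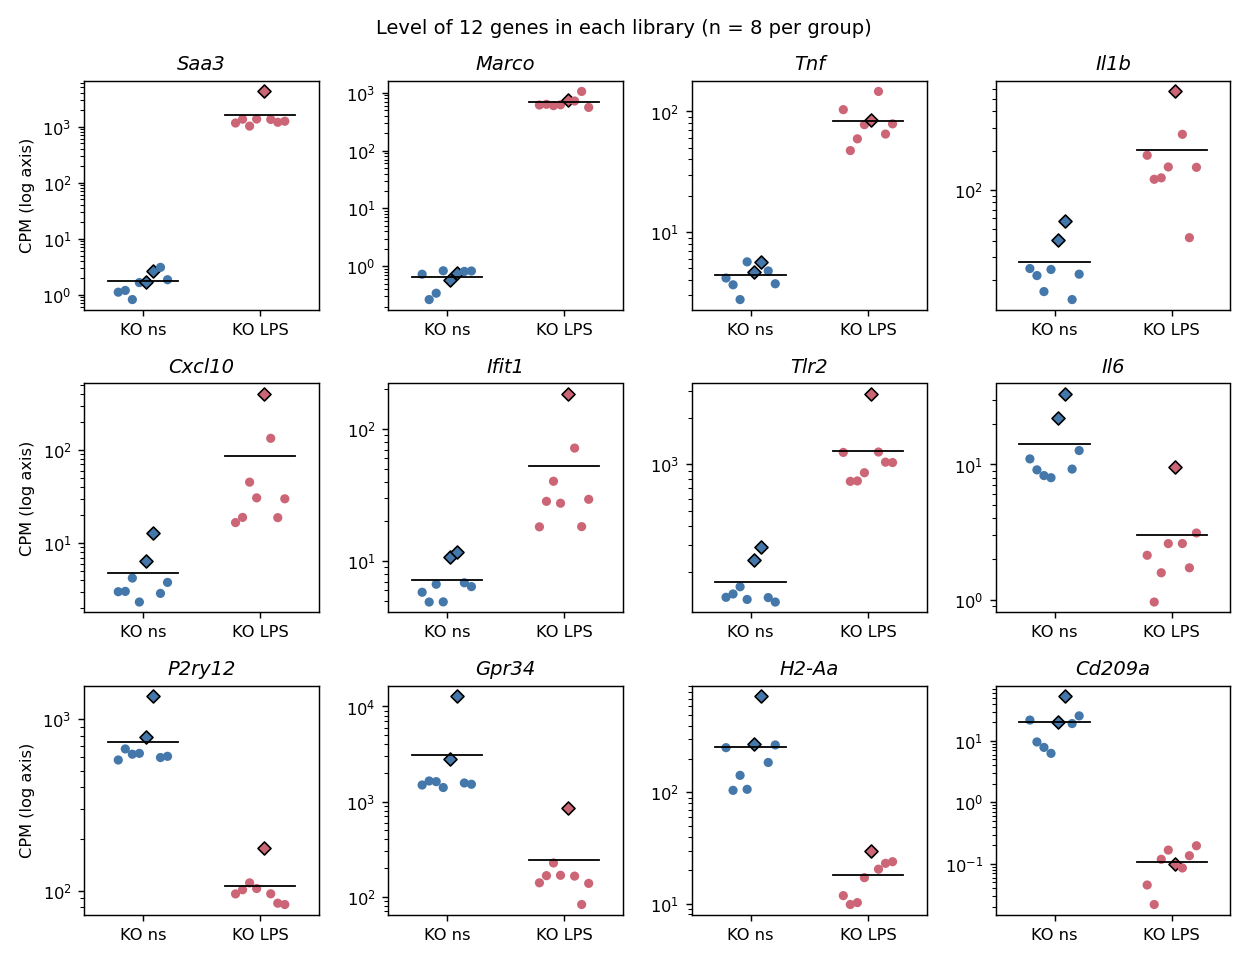
Each point is 1 library (n = 8 per group) and each bar the group mean, in CPM on a log axis, for 12 genes in KO ns and KO LPS. Diamonds are KO ns 5, KO ns 6 and KO LPS 5. The groups do not overlap for Saa3, Marco, Tnf, Cxcl10, Ifit1, Tlr2, P2ry12, Gpr34, H2-Aa and Cd209a, and they overlap for Il1b and Il6.

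Receptors for bacterial and nucleic acid ligands moved in different directions. Of the list of LPS sensors and adaptors, 8 of 25 tested members rose and 2 fell, and the 13 libraries gave 13 of 25 higher and 6 lower. Tlr4, the LPS receptor itself, was at 154 ± 122 CPM in KO ns and 142 ± 82.2 in KO LPS (SD, n = 8). Its log2 fold change of -0.05 ± 0.32 was not called (adjusted p 0.936) and was 0.14 in the 13 libraries (adjusted p 0.0777). The sign of Tlr4 depends on the libraries used. Tlr2, which recognises bacterial lipoproteins, was at 128 to 293 CPM with a median of 141 in KO ns and at 775 to 2854 CPM with a median of 1029 in KO LPS, with no overlap (2.80 ± 0.26, adjusted p 1.00e-06). Tlr1, its partner, rose by 1.39 ± 0.22. Cd14, which hands LPS to TLR4, rose from 322 ± 173 to 648 ± 201 CPM (1.04 ± 0.23, adjusted p 0.00307). The adaptor genes Myd88 (0.64 ± 0.15), Ticam2 (0.71 ± 0.14) and Tirap (0.59 ± 0.20) rose, as did Irak3 (2.22 ± 0.23), whose product restrains Toll-like receptor signalling. Tlr5 (-0.88 ± 0.20) and Tlr8 (-0.71 ± 0.19) fell.

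Feedback inhibitors of NF-kappaB and the subunit genes Nfkb2 (1.54 ± 0.44) and Relb (1.21 ± 0.38) rose, while Nfkb1, Rela and Rel were not called. Of the NF-kappaB list, 10 of 18 tested members rose and 0 fell, with a median of 1.20, and the 13 libraries gave 14 of 18 higher and 2 lower. Nfkbia, which encodes the inhibitor IkappaB-alpha, was at 70.4 to 133 CPM with a median of 85.6 in KO ns and at 177 to 453 CPM with a median of 265 in KO LPS (1.58 ± 0.21, adjusted p 4.51e-05). Its groups did not overlap. Tnfaip3, the gene of the deubiquitinase A20, rose by 1.99 ± 0.20, Nfkbiz by 1.95 ± 0.18 and Bcl3 by 3.47 ± 0.51. Bcl3 was at 2.88 CPM in KO LPS 5, inside the KO ns range. Nfkb1 (0.09 ± 0.27), Rela (-0.06 ± 0.38) and Rel (0.02 ± 0.18) were not called in 16 libraries (adjusted p 0.859, 0.934 and 0.946). In the 13, Rela (-0.20) and Rel (-0.13) were called lower. Of the list of JAK-STAT feedback genes and MAP kinase phosphatases, 4 of 17 tested members rose and 1 fell. Socs3, a feedback inhibitor of cytokine receptors, rose by 3.47 ± 0.34 (adjusted p 1.80e-06), and Stat3 by 1.01 ± 0.36 (adjusted p 0.04996), at the edge of the threshold.

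Cytokine genes split, with Tnf and Il1b higher and Il6 lower. Of the cytokine and inflammasome list, 7 of 18 tested members rose and 1 fell, and the 13 libraries gave 12 of 18 higher and 2 lower. Tnf was at 2.76 to 5.67 CPM with a median of 4.42 in KO ns and at 47.4 to 147 CPM with a median of 78.3 in KO LPS (4.23 ± 0.24, adjusted p 7.11e-09). The groups stood well apart. Il1b was at 14.2 to 57.0 CPM with a median of 23.3 and at 42.6 to 570.2 CPM with a median of 149 (2.83 ± 0.41, adjusted p 9.24e-05). They overlapped through KO LPS 7, at 42.6 CPM, and KO ns 6, at 57.0. Il1r2, a decoy receptor for interleukin 1, rose from 6.23 ± 4.31 to 254 ± 124 CPM (5.37 ± 0.52). Il1rn, the gene of the interleukin 1 receptor antagonist, rose by 2.06 ± 0.50, and Il18bp, that of an interleukin 18 antagonist, by 1.80 ± 0.16. Il12b, at under 1 CPM in KO ns, rose by 4.77 ± 0.62. Il6 was at 7.98 to 33.2 CPM with a median of 10.1 in KO ns and at 0.961 to 9.53 CPM with a median of 2.37 in KO LPS, a fall of 4.78-fold (-2.26 ± 0.36, adjusted p 2.05e-04). KO LPS 5, at 9.53 CPM, lay inside the KO ns range, and over the 13 libraries the value was -2.26 (adjusted p 7.05e-07).

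Chemokine genes rose more often than they fell. Of the chemokine list, 11 of 19 tested members rose and 4 fell, with a median of 1.19, and the 13 libraries gave 12 of 19 higher and 5 lower. Ccl2, the main attractant of monocytes, rose from 3.56 ± 2.595 to 73.1 ± 101 CPM (4.16 ± 0.63, adjusted p 1.26e-04). The wide spread came with KO LPS 5 at 310.2 and KO LPS 7 at 6.39 CPM, the second of which lay inside the KO ns range. Cxcl10, an interferon-induced attractant of T cells, was at 2.34 to 12.8 CPM with a median of 3.42 in KO ns and at 16.6 to 399.9 CPM with a median of 30.3 in KO LPS (3.83 ± 0.60, adjusted p 1.86e-04). Ccl5 (3.09 ± 0.35), Ccl12 (3.48 ± 0.62) and Cxcl16 (2.36 ± 0.19) also rose. The 4 genes that fell were Ccl6 (-1.43 ± 0.37), Ccl8 (-1.99 ± 0.58), Ccl24 (-3.43 ± 0.47) and Pf4 (-2.34 ± 0.37). Chemokine receptors went the other way, where 1 of 12 tested members rose and 6 fell. Among them, Ccr2 (-1.74 ± 0.39), Ccr3 (-3.68 ± 0.57) and Cxcr4 (-1.33 ± 0.38) fell, and Ccr7 rose by 1.83 ± 0.56. Ccr2 and Ccr3 are better known from monocytes and eosinophils than from microglia.

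The interferon-stimulated genes moved together. On this list 33 of 35 tested members rose and 0 fell, with a median of 1.76. In 18 of the 35 every KO LPS library was above every KO ns library, against 3.83% of all genes tested. In the 13 libraries 34 were higher and 0 lower. Ifi44 and Ifi27l2a, at 0.89 ± 0.45 and 1.05 ± 0.51, were the 2 not called. Zbp1, a sensor of left-handed nucleic acids, rose from 7.34 ± 1.97 to 79.1 ± 16.96 CPM (3.43 ± 0.21, adjusted p 1.21e-08). Ifit1, which binds foreign RNA lacking a host cap, was at 4.89 to 11.6 CPM with a median of 6.54 in KO ns and at 18.2 to 185 CPM with a median of 28.9 in KO LPS (2.73 ± 0.40, adjusted p 9.54e-05). Its highest value was in KO LPS 5. Irf7, the factor that amplifies interferon production, rose by 2.68 ± 0.26 and Oasl1 by 3.27 ± 0.26. The summed level of the list was 934 to 1686 CPM in KO ns and 2625 to 7110.2 in KO LPS. Ifit, Oas and Gbp genes have close copies, so reads may be divided among them.

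Of the guanylate-binding proteins and immunity-related GTPases, which attack vacuoles of pathogens, 9 of 15 tested members rose and 1 fell. Gbp2 rose by 2.54 ± 0.24 and Gbp7 by 1.62 ± 0.21, while Tgtp1, at about 1 CPM, fell (-1.38 ± 0.25 on the log2 scale). MHC class I and the immunoproteasome, which present peptides to CD8 T cells, had 8 of 19 members higher and 0 lower in 16 libraries and 18 higher in 13. Nlrc5, the activator of class I genes, rose by 2.29 ± 0.35, and Tap1 by 1.15 ± 0.27. B2m was not called in 16 libraries (0.16 ± 0.42, adjusted p 0.842), with KO ns 6 at 12295 CPM against a KO ns median of 1476. Without the 3 libraries its value was 0.65 (adjusted p 7.74e-06).

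MHC class II genes fell. On this list 0 of 9 tested members rose and 7 fell, with a median of -1.99, and the 13 libraries gave 0 of 9 higher and 8 lower. H2-Aa, the alpha chain that presents peptides to CD4 T cells, was at 104 to 732 CPM with a median of 219 in KO ns and at 9.81 to 29.8 CPM with a median of 18.7 in KO LPS, with no overlap (-3.77 ± 0.30, adjusted p 2.36e-07). H2-Eb1 (-3.87 ± 0.22, adjusted p 8.47e-09) and H2-Ab1 (-3.09 ± 0.24) fell, as did Ciita (-2.598 ± 0.61), the master activator of the class. Dendritic cell markers moved with these genes. Of that list, 8 of 11 fell and 1 rose, and its summed level was 1408 to 2524 CPM in KO ns and 323 to 691 in KO LPS. Most of that sum is Siglech, which microglia also express, at 1728 and 355 CPM. Among defining dendritic cell genes, Clec9a fell, at 1.64 ± 0.713 CPM in KO ns and 0.126 ± 0.133 in KO LPS (SD, n = 8), and Flt3 fell, at 6.08 ± 2.05 CPM in KO ns and 1.58 ± 0.852 in KO LPS. Zbtb46, at 6.21 ± 1.52 CPM in KO ns and 6.93 ± 2.02 in KO LPS, and Xcr1, at 0.833 ± 0.419 CPM in KO ns and 1.53 ± 0.413 in KO LPS, were not called (adjusted p 0.687 and 0.122), and Xcr1 was called higher in the 13 libraries (adjusted p 0.0117). In these bulk samples, fewer cells of a type and less RNA per cell cannot be told apart. The part of such cells in the fall was not tested.

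Promoters of 4 genes above are shown because their sequence carries a motif of the factors named. RefSeq promoters (GRCm38.p6, 250 bases before to 50 after the start of the gene) were matched for 79 of the 100 named genes tested. The interferon-stimulated response element core, GAAANNGAAA on either strand, was in 13 of 24 interferon-stimulated genes with a promoter (54.2%), and in 3.99% of 27025 genes as well as of the genes tested. The NF-kappaB consensus, also on either strand, was in 10 of 15 members of the NF-kappaB list (66.7%), 4 of 14 of the cytokine list (28.6%), 3 of 13 chemokines (23.1%) and 2 of 7 of the acute-phase list (28.6%), against 9.55% of all genes and 11.9% of genes tested. A match is a description of letters, not of binding. In the lines below, the capitals are the match, written 5′ to 3′ on the strand of the gene, and positions count bases before the start.
Ifit1, chr19:34640759-34640858 on the plus strand, match at -85 to -76: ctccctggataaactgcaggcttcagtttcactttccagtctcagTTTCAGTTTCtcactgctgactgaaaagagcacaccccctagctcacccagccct
Cxcl10, chr5:92348938-92349037 on the minus strand, match at -103 to -94: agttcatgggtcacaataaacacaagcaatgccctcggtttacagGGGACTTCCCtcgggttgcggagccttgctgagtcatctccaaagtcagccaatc
Nfkbia, chr12:55492648-55492721 on the minus strand, match at -29 to -20: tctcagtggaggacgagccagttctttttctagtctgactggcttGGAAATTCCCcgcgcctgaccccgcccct
Il6, chr5:30013025-30013113 on the plus strand, match at -44 to -35: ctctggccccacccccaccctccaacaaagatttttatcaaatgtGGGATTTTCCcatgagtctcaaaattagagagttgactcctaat
Ifit1 holds the interferon core and the others the NF-kappaB consensus. A further match of Ifit1, at -104 to -95, is left in lower case, and Cxcl10 has others at -159 to -150 and, overlapping the one shown, at -104 to -95. Ifit1, Cxcl10 and Nfkbia rose with LPS, and Il6 fell.

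Complement and oxidant genes rose in part. Of the complement list, 7 of 13 tested members rose and 0 fell, and the 13 libraries gave 9 of 13 higher and 1 lower. C5ar1, the receptor of the C5a fragment, rose from 76.5 ± 9.20 to 334 ± 57.8 CPM (2.13 ± 0.15, adjusted p 4.32e-08). C4b (2.61 ± 0.54), C3 (1.92 ± 0.58) and C3ar1 (1.31 ± 0.27) rose, and C1qa (0.49 ± 0.23, adjusted p 0.155) was not called. C3 was not called in the 13 libraries (adjusted p 0.0628), and C1qa was (0.78, adjusted p 4.50e-07). C4b was at 23.6 CPM in KO LPS 5 against a group median of 238, and its reads could be shared with near-identical copies. In the list of nitric oxide, itaconate and NADPH oxidase genes, 10 of 14 tested members rose and 0 fell. Acod1 was at 0.220 to 1.57 CPM with a median of 0.732 in KO ns and at 17.2 to 107 CPM with a median of 40.4 in KO LPS. Sod2, the mitochondrial superoxide dismutase, rose by 2.33 ± 0.21, and Cybb, the catalytic subunit of the phagocyte oxidase, by 2.28 ± 0.43. Nos2, which makes nitric oxide, had 0 to 2 counts per KO ns library and 3 to 373 per KO LPS library, and did not pass the filter in 16 libraries. Its mean was 6.03 ± 3.37 CPM in KO LPS (SD, n = 8), with KO LPS 5 at 0.147. In the 13 libraries it rose by 7.78 ± 0.48 (adjusted p 1.50e-08), a size that rests on the few counts in KO ns.

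Receptors for antibody and for debris changed unevenly. Of 5 Fc gamma receptor genes, 2 rose and 0 fell, and 5 were higher in the 13 libraries. Fcgr4 rose from 33.02 ± 32.3 to 379.7 ± 169 CPM (3.62 ± 0.38) and Fcgr1 by 0.79 ± 0.21. Among scavenger and phagocytic receptors, 2 of 13 tested members rose and 3 fell. Msr1, a scavenger receptor for modified lipoproteins, was at 10.3 to 26.3 CPM with a median of 18.0 in KO ns and at 484 to 1500.3 CPM with a median of 636 in KO LPS (5.38 ± 0.23). Cd36 (-2.05 ± 0.41), Mrc1 (-1.51 ± 0.22) and Colec12 (-1.12 ± 0.28) fell. Lysosomal genes had 7 of 22 higher and 2 lower, with the proteases Ctsc (1.68 ± 0.30) and Ctsl (1.43 ± 0.35) higher and Ctsd (-1.17 ± 0.16) and Hexa (-1.30 ± 0.18) lower. Of the integrin and adhesion list, 6 of 18 tested members rose and 2 fell, with Itga5 (2.21 ± 0.48) and Vcam1 (1.39 ± 0.23) higher and Selplg (-1.17 ± 0.21) lower. Among costimulatory and checkpoint molecules, 3 of 13 tested members rose and 4 fell. Cd274, the ligand of the inhibitory receptor PD-1, rose by 1.92 ± 0.27, and Cd40 by 2.17 ± 0.29, while Cd276 fell (-1.80 ± 0.35 on the log2 scale).

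Genes of resting microglia fell, though not all of them. On the homeostatic list 1 of 29 tested members rose and 17 fell, with a median of -0.94, and the 13 libraries gave 2 of 29 higher and 25 lower. P2ry12, whose levels are given above, fell 6.83-fold without overlap (-2.77 ± 0.22 on the log2 scale, adjusted p 1.76e-07). Gpr34, a receptor for lysophosphatidylserine, was at 1406 to 12772 CPM with a median of 1595 in KO ns and at 82.8 to 851 CPM with a median of 166 in KO LPS (-3.53 ± 0.55, adjusted p 1.76e-04). KO ns 6 alone exceeded 2826 CPM, the next highest. Slc2a5, the fructose transporter, was at 473 to 642 CPM with a median of 577 and at 19.8 to 93.5 CPM with a median of 66.9 (-3.16 ± 0.25, adjusted p 1.76e-07). Siglech (-2.28 ± 0.20), Crybb1 (-2.10 ± 0.35), Ltc4s (-2.06 ± 0.22) and Fcrls (-1.64 ± 0.32) also fell. P2ry6, whose product senses uridine diphosphate, was the list's single rise (0.49 ± 0.13).

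Other markers of microglial identity were not called in 16 libraries. Cx3cr1, the fractalkine receptor, was at -0.17 ± 0.26 (adjusted p 0.701), Csf1r, needed for microglial survival, at -0.16 ± 0.26 (adjusted p 0.713), and the transcription factor gene Sall1 at -0.48 ± 0.34 (adjusted p 0.356). Tmem119 was at -0.59 ± 0.22 (adjusted p 0.0618). In the 13 libraries the 4 were called lower, at -0.30, -0.19, -0.60 and -0.57. In KO ns 6 Cx3cr1 was at 620.2 CPM, against 2873 over the group, and in KO LPS 5 Sall1 was at 136 against 774. In the TGF-beta pathway, which maintains the resting state, 0 of 13 tested members rose and 2 fell: Tgfbr1 (-1.45 ± 0.29) and Smad3 (-0.75 ± 0.25). That share of falls was near the 11.9% of all genes tested that were called lower.

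Disease-associated microglia genes had no shared direction, with 5 of 20 higher and 5 lower. Trem2, a lipid receptor of that programme, was at 1068 to 2986 CPM with a median of 1205 in KO ns and at 335 to 630.0 CPM with a median of 503 in KO LPS and fell without overlap (-1.46 ± 0.22, adjusted p 1.43e-04). Igf1 (-2.84 ± 0.33) and Cd9 (-1.40 ± 0.38) also fell. Spp1, the gene of osteopontin, rose by 2.11 ± 0.56 and Cst7 by 1.85 ± 0.29. Apoe was not called (-0.59 ± 0.29, adjusted p 0.172), and in the 13 libraries it was at -0.44 (adjusted p 0.0383).

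Receptors and enzymes of nucleotide signalling, the pathway of the targeted receptor, moved both ways. On this list, which leaves out P2ry12 and P2ry13, 4 of 16 tested members rose and 5 fell, and the 13 libraries gave 5 of 16 higher and 6 lower. P2ry13, the other receptor for adenosine diphosphate in microglia, fell from 583 ± 464 to 262 ± 172 CPM (-1.05 ± 0.34, adjusted p 0.0362). Its groups overlapped. P2rx1 (-1.71 ± 0.20) and Entpd1, the gene of the ectonucleotidase CD39 (-1.30 ± 0.18), also fell. P2ry2, a receptor for adenosine and uridine triphosphate, rose from 1.52 ± 0.793 to 12.5 ± 5.23 CPM (3.04 ± 0.43), and the channel gene P2rx4 by 0.87 ± 0.13. On the list for cyclic AMP, the second messenger lowered by P2Y12, 1 of 22 tested members rose and 4 fell. The phosphodiesterase gene Pde4b rose by 1.505 ± 0.20, while Pde4d (-0.998 ± 0.20) and Pde3b (-0.92 ± 0.15) fell. Adcy8 fell from 8.89 CPM to 0.0851 (-6.57 ± 0.54).

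Among called genes with a mean of at least 5 CPM and 1 direction in both sets, the largest fall was in a lectin. Predicted genes and pseudogenes were left out, and Adcy8, given above, lay under that mean. Cd209a, a lectin of dendritic cells and border macrophages, was at 6.27 to 52.9 CPM with a median of 19.6 in KO ns and at 0.0218 to 0.197 CPM with a median of 0.108 in KO LPS (-7.47 ± 0.45, adjusted p 1.21e-08). It had 1 to 5 counts per KO LPS library. Mgl2 (-4.65 ± 0.35), a lectin of the same cells, Upk1b (-4.61 ± 0.23), Ccdc162 (-4.47 ± 0.36), Ctnnd2 (-4.44 ± 0.42), Hlf (-4.35 ± 0.32), Tnfrsf17 (-4.31 ± 0.47) and Gprasp2 (-4.07 ± 0.41) fell without overlap. Capn11 overlapped between groups and varied within KO ns, from 0.0463 to 39.8 CPM (-4.19 ± 1.33, adjusted p 0.0305). Upk1b, which encodes a tetraspanin, was at 106 to 211 CPM with a median of 129.6 in KO ns and at 4.11 to 11.0 CPM with a median of 5.04 in KO LPS. Hlf encodes a factor of the same family as Dbp and Tef, outputs of the circadian clock. On the clock list 0 of 13 tested members rose and 5 fell, and all of these were output or repressor genes: Dbp (-3.45 ± 0.36), Nr1d1 (-3.04 ± 0.59), Nr1d2 (-3.17 ± 0.34), Tef (-2.46 ± 0.32) and Per3 (-2.03 ± 0.27). The core genes Clock (-0.000962) and Arntl (0.04 ± 0.13) were not called (adjusted p 0.998 and 0.85). The labels give no hour of collection.

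Most genes of the secretion stress list rose, while most iron genes were not called. On the unfolded protein and integrated stress response list 11 of 17 tested members rose and 1 fell, with the chaperone genes Hspa5 (1.45 ± 0.28) and Calr (1.21 ± 0.19) among the rises and Atf3 (-0.54 ± 0.18) the fall. Iron genes had 4 of 11 higher and 1 lower. Fth1, the ferritin heavy chain, rose from 908 ± 153 to 3567 ± 451 CPM (1.98 ± 0.15), and Slc40a1, the iron exporter ferroportin, fell from 285 ± 101 to 67.4 ± 29.7 CPM (-2.09 ± 0.23). Neither gene overlapped between groups. Slc11a2, an iron importer, rose by 1.77 ± 0.15. Among NRF2 targets, 3 of 15 tested members rose and 2 fell, with Hmox1, the haem-degrading enzyme, at 1.23 ± 0.13 and Txnrd1 at 1.21 ± 0.23. Of heat shock genes, 4 of 12 rose, and Hsph1 of these was not called in the 13 libraries (adjusted p 0.13). Immediate early genes had 4 of 20 higher, with Ier3 (2.95 ± 0.25) and Klf4 (1.95 ± 0.56), and 4 lower, with Egr2 (-1.998 ± 0.45). The set is one that tissue dissociation is also known to induce. Glucocorticoid-responsive genes had 4 of 15 higher, with Klf9 (2.94 ± 0.65) at 70.6 CPM in KO LPS 7 and 0.733 in KO LPS 5, and 3 lower.

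Metabolic genes that were called mostly rose. In glycolysis 7 of 22 tested members rose and 1 fell, with Gapdh (1.04 ± 0.14) and Gpi1 (1.02 ± 0.22). In cholesterol synthesis and efflux 10 of 28 tested members rose and 1 fell, with Mvd (2.40 ± 0.45), an enzyme of the mevalonate pathway, and Nr1h3 (1.72 ± 0.36), which encodes the sterol receptor LXR-alpha. The fall was in Scd1, at 0.744 CPM in KO ns. Cell cycle and DNA replication genes had 8 of 21 higher and 0 lower. They were Aurka, 6 genes of the replication helicase, such as Mcm2 (1.92 ± 0.32), and Cdkn1a (2.42 ± 0.42), which arrests the cycle.

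Ribosomal and respiratory genes depended on which libraries were used. In 16 libraries 9 of 86 ribosomal protein genes rose, with a median of 0.14, and in 13 libraries 78 did, with a median of 0.55. Nuclear-encoded respiratory chain genes had 8 of 75 higher in 16 and 69 in 13. Mitochondrially encoded genes had 0 of 8 called in 16 and 8 higher in 13, with a median of 0.31. Summed ribosomal levels were 12843 to 15563 CPM in the other KO ns libraries and 19253 to 22438 in the other KO LPS libraries, but 80877 in KO ns 6 and 53418 in KO LPS 5. The shares of mitochondrial counts given above move with these sums in the same libraries, and their part in the result was not tested. Rpsa (1.27 ± 0.28) and Rps2 (1.22 ± 0.22) were the largest rises of the list, and both have pseudogenes that could share their reads.

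**Figure D3:**
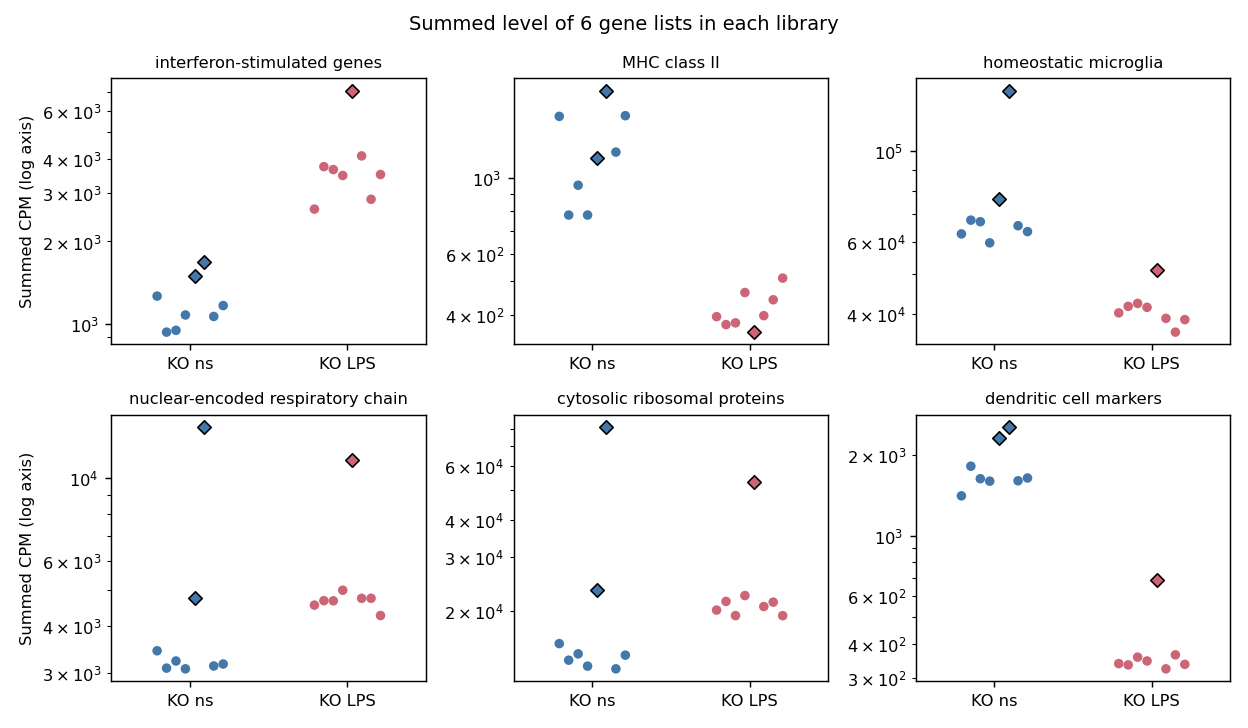
Each point is the summed CPM of the tested members of a list in 1 library, on a log axis, for KO ns and KO LPS (n = 8 each), with KO ns 5, KO ns 6 and KO LPS 5 as diamonds. Interferon-stimulated, MHC class II, homeostatic and dendritic cell sums separate the groups in all 16 libraries. Ribosomal and respiratory chain sums separate them in the other 13 and are highest in KO ns 6 and KO LPS 5.

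Markers of other cells of the CD11b gate were present. Neutrophil markers summed to 1154 to 11384 CPM in KO ns and 2079.9 to 5282 in KO LPS, and 1 of 14 rose, with 0 lower. Monocyte markers summed to 194 to 1657 and 613 to 1152, with 2 of 13 higher and 1 lower. Both ranges overlap between the groups. KO ns 6 held the highest sum of each. The next highest were KO ns 4 (9477 and 1301 CPM) and KO ns 1 (8375 and 1385 CPM), which are among the 13 libraries. In some libraries most of the neutrophil sum was Csf3r, as in KO ns 2 (1500 of 1809 CPM). Border-associated macrophage markers had 5 of 13 lower, with Mrc1, Pf4, Ms4a7, Clec10a and Cd209a, and summed to 842 to 2823 and 743 to 3418 CPM. Stab1 made up most of that sum in KO ns 1 (1833 of 2392 CPM), KO LPS 2 (3165 of 3418 CPM) and most other libraries. It did not in KO ns 5, KO ns 6 and KO LPS 5. In the 13 libraries Stab1 went the other way from the 5 that fell. It was at 1519 to 2038 CPM in KO ns and at 2109 to 3165 in KO LPS there. Cd163 and Lyve1, at 57.7 and 20.6 CPM in KO ns, were not called (adjusted p 0.822 and 0.5). Of the B cell list, 0 of 3 tested members rose and 2 fell. Ighm fell from 442 ± 61.2 to 139 ± 38.6 CPM. Cd79b overlapped widely, at 14.2 to 52.4 CPM in KO ns and 14.5 to 44.1 in KO LPS, and Ms4a1 and Cd79a did not pass the filter. T and NK cell markers had 3 of 7 lower, which were Cd4, Klrb1c and Lck, and Cd3e and Cd8a did not pass the filter. Endothelial and mural markers had 3 of 9 lower, at summed levels of 79.6 to 129.8 and 30.7 to 93.8. Astrocyte markers had 1 of 8 higher and 1 lower, and most of their sum was Slc1a3. Of neuron, oligodendrocyte and erythroid markers, 0 of 9, 1 of 6 and 0 of 5 rose, and none fell. The part of these cells in the results was not tested.

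Read against the share of all genes called, some lists lay far from it and others near it. In 16 libraries the ribosomal list (9 of 86 higher, 0 lower) and the respiratory chain list (8 of 75 higher, 1 lower) lay close to the 12.0% of all genes called higher. Both lay below the 11.9% called lower. Other lists were near these shares, such as scavenger receptors (2 of 13 higher, 3 lower), NRF2 targets (3 of 15 higher, 2 lower) and monocyte markers (2 of 13 higher, 1 lower). TGF-beta genes were near it in their falls (2 of 13). In the 13 libraries the shares were 30.9% higher and 28.1% lower. Scavenger receptors, integrins, immediate early genes and purinergic genes (5 of 16 higher, 6 lower) lay near them. For lists whose counts in the 13 libraries are not given above, the 13 libraries gave 4 of 9 higher and 0 lower for acute-phase proteins, 4 of 13 higher and 4 lower for scavenger receptors and 1 of 12 higher and 7 lower for chemokine receptors. Guanylate-binding proteins had 11 of 15 higher and 1 lower, JAK-STAT feedback 8 of 17 higher and 2 lower, and the nitric oxide list 12 of 15 higher and 0 lower. The TGF-beta pathway had 1 of 13 higher and 5 lower, disease-associated genes 8 of 20 higher and 8 lower, the cyclic AMP list 5 of 22 higher and 11 lower, and the clock list 0 of 13 higher and 7 lower. Stress response genes had 16 of 18 higher and 1 lower, iron genes 8 of 11 higher and 1 lower, NRF2 targets 9 of 15 higher and 4 lower, and heat shock genes 6 of 12 higher and 1 lower. Glycolysis had 12 of 22 higher and 4 lower, cholesterol genes 18 of 27 higher and 2 lower, lysosomal genes 11 of 22 higher and 7 lower, and cell cycle genes 8 of 21 higher and 0 lower. Immediate early genes had 7 of 20 higher and 7 lower, glucocorticoid-responsive genes 7 of 15 higher and 3 lower, integrins 6 of 18 higher and 4 lower, and costimulatory molecules 6 of 13 higher and 4 lower. Of the markers of other cells, the 13 libraries gave 1 of 14 higher and 1 lower for neutrophils, 2 of 13 higher and 1 lower for monocytes, 1 of 13 higher and 5 lower for border-associated macrophages and 2 of 11 higher and 8 lower for dendritic cells. They gave 0 of 7 higher and 1 lower for T and NK cells, 0 of 3 higher and 1 lower for B cells, 1 of 9 higher and 4 lower for endothelial and mural cells and 2 of 8 higher and 1 lower for astrocytes. Oligodendrocyte markers had 1 of 6 higher and 3 lower, neuron markers 0 of 9 higher and 0 lower and erythroid markers 0 of 5 higher and 0 lower.

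**Figure D4:**
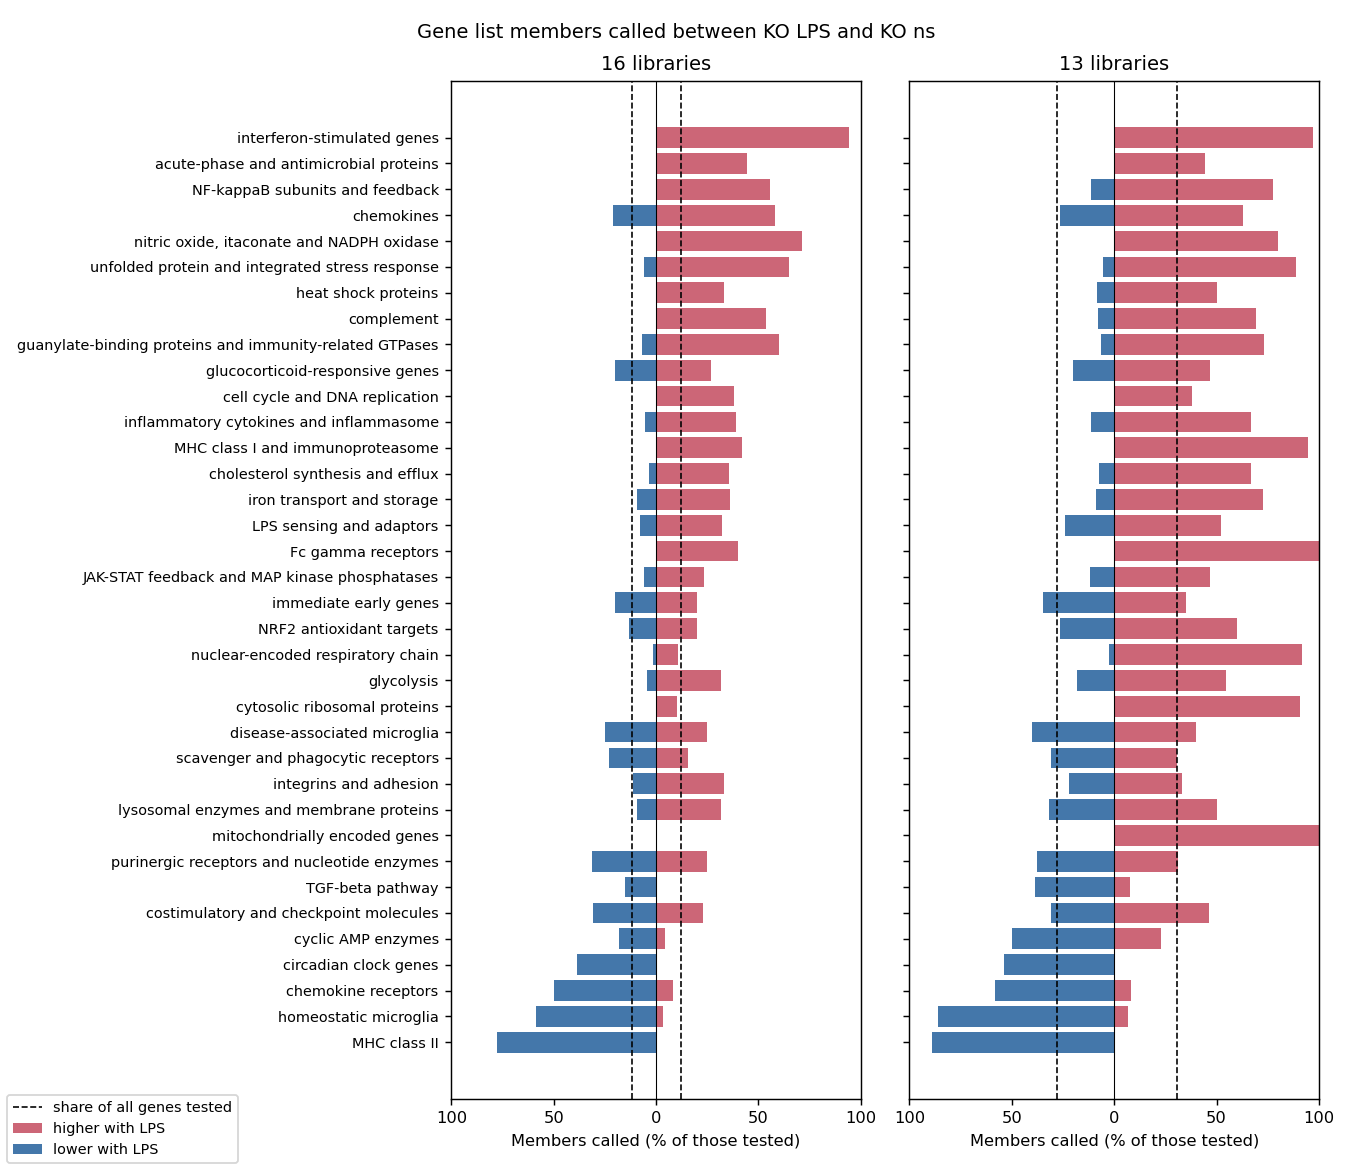
Bars give the percent of tested members of each gene list that were called higher (right of 0) or lower (left of 0) with LPS in KO, in 16 and in 13 libraries, and dashed lines the percent of all genes tested (12.0% and 11.9%, then 30.9% and 28.1%). The interferon-stimulated list has 33 of 35 members higher, and the MHC class II list 7 of 9 lower.

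The library sets differed in how many genes were called. Set 1 alone gave 7865 calls and set 2 alone 339, and set 2 without its 3 libraries that stand apart gave 3854. The coefficient of variation was 17.6% in set 1, 57.0% in set 2 and 21.9% in set 2 without those libraries. Across 14524 genes tested in both sets, which are not independent, the log2 fold changes of the sets correlated with r = 0.869. Saa3 changed by 9.93 in set 1 and 9.72 in set 2, and P2ry12 by -2.65 and -2.92. A difference in the LPS response between sets was found for 0 genes with edgeR, with 88 at an unadjusted p under 0.05, and for 0 with DESeq2. In the 13 libraries there were 0 with edgeR, with 415 at an unadjusted p under 0.05. Both counts are smaller shares of the genes tested than the 0.05 that no difference would give. The 3 libraries that stand apart are all in set 2. The 0 calls therefore do not show that the sets responded alike. The sets also differ in the sex read from Xist and Ddx3y.

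**Figure D5:**
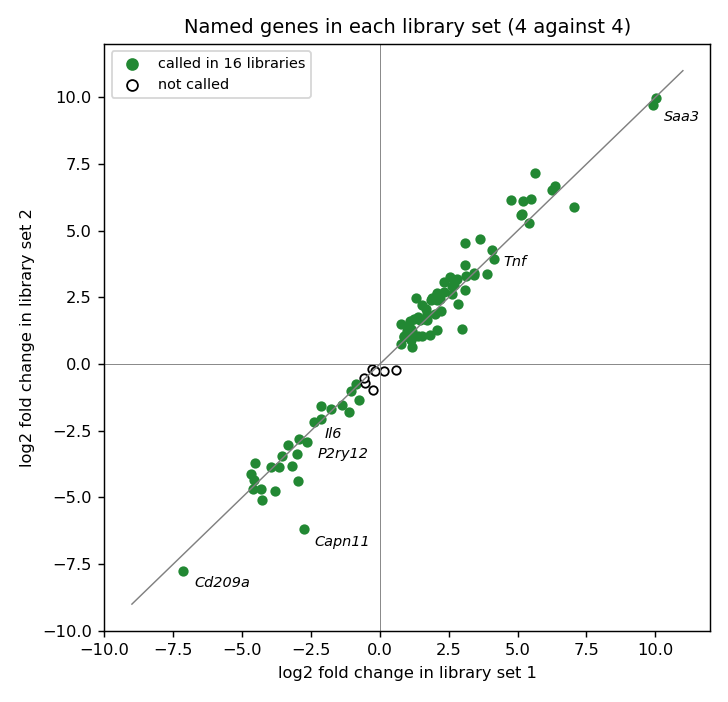
Each point is 1 of 100 named genes tested, with its log2 fold change (KO LPS against KO ns) in library set 1 on the horizontal axis and in set 2 on the vertical axis, 4 libraries against 4 in each. Filled points were called in 16 libraries, and the line marks equal change. Saa3 and Marco lie at the upper end and Cd209a at the lower end of both axes.

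Whether the response differs from that of WT mice could be tested only against WT libraries of which those numbered 2 go against their labels in P2ry12, so a direction drawn from WT rests on the libraries as labelled. The genotype-by-LPS difference was called for 0 of 15857 genes with edgeR, with 1698 at an unadjusted p under 0.05, and for 11 with DESeq2. Of the genes named above, DESeq2 called Cd209a (adjusted p 0.00105), Marco (0.00157), Saa3 (0.00157), Il6 (0.0141) and H2-Eb1 (0.0466), for which edgeR gave an adjusted p of 0.416 each. These fits include the libraries numbered 2. Without the libraries numbered 2 in every group, edgeR also gave 0, with 1574 at an unadjusted p under 0.05. In that fit the KO response minus the WT response was -0.01 ± 0.32 (adjusted p 0.993) for P2ry12, on the log2 scale. It was -0.68 ± 0.58 (adjusted p 0.563) for Tnf, 1.32 ± 0.97 (adjusted p 0.523) for Saa3 and 2.81 ± 1.31 (adjusted p 0.457) for Marco. It was -1.90 ± 0.99 (adjusted p 0.457) for Cd209a, -0.23 ± 0.32 (adjusted p 0.698) for H2-Eb1 and -2.93 ± 0.87 (adjusted p 0.457) for Il6. A further edgeR fit, chosen after seeing the data, also left out KO ns 6. It gave -2.76 ± 0.86 for Il6, 2.73 ± 1.40 for Marco and -1.64 ± 0.96 for Cd209a (adjusted p 0.764 each). With only the libraries numbered 2 left out, WT ns still reached 64.5 CPM for Saa3 and 64.6 for Marco, with medians of 2.76 and 1.21. The highest KO ns values there were 3.25 and 0.858 CPM. The part of such WT ns values in these differences was not tested. For Il6 the LPS response of WT libraries in the same setting was 0.35 on the log2 scale, against -2.26 in KO over all 16 libraries, and the difference did not pass the adjusted threshold. With these libraries edgeR called no gene as particular to KO, and the DESeq2 calls were not tested without the libraries numbered 2.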

How the data were processed

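The authors deposited raw counts per gene, whole numbers not normalized, for CD11b-positive brain cells. FastQC, STAR 2.6.1, featureCounts, Subread, DESeq2 and build GRCm39 are named in the submitters' processing notes, without settings, so sharing of reads among overlapping genes or copies is unknown. Columns were matched to samples by library name, with 0 unmatched. Of 53278 genes, 14796 passed filterByExpr. Counts were TMM-scaled and tested with edgeR 4.0.16 (R 4.3.3), by the quasi-likelihood F test with robust dispersions and library set as covariate, with Benjamini-Hochberg adjustment over all genes tested and a threshold of 0.05. Each SE of an edgeR log2 fold change is its absolute value over the square root of the F statistic, an approximation. Alternatives included DESeq2 1.42.0, limma 3.58.1 with quality weights, RLE scaling, other filters, sets and libraries left out. For the genotype test WT LPS 8 and 9 were summed, since their counts nearly agree. No other duplicates were found within KO groups (chi-square per degree of freedom at least 8.32 over 56 pairs). The fits were tested on simulated counts with the same spread for every gene, no set effect and no libraries standing apart. That test does not show how the fits do at the spread of these libraries. Named genes were the 10 largest rises and falls at a mean of at least 5 CPM with 1 direction in both sets (predicted genes and pseudogenes left out), up to 2 called members per list, and anchor genes; other list members were named after their values were seen. Members and lists were chosen with earlier results of these data known. Depth limits low genes, where 1 count is a large step.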

Additional observations from a re-analysis of the deposited data

Results flagged for a closer look

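Among 200 groups of 8 libraries (100 named genes in KO ns and in KO LPS), 73 had 1 library far from the others in log2 CPM by Dixon's ratio, the gap to the next library divided by the range. Chance alone gives about 1 in 20. KO LPS 5 was that library in 41, KO ns 6 in 24, KO ns 5 in 4 and KO LPS 7 in 4.

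KO LPS 5 was the lowest KO LPS library, with the ratio in parentheses, for Adamtsl4 (0.713), Ikbke (0.725), Susd2 (0.674), Ctnnd2 (0.686), Bcl3 (0.851), Tap1 (0.731), Socs3 (0.845), Stat3 (0.929), C4b (0.691), P2ry2 (0.772), Gpi1 (0.732), Mvd (0.651), Txnrd1 (0.794), Itga5 (0.871), Cd276 (0.585), Csf1r (0.903), Sall1 (0.766) and Apoe (0.615). Several of these are inflammatory genes that rose with LPS in the other libraries, such as Bcl3, at 2.88 CPM, and Itga5, at 13.8 CPM. It was the highest for Saa3 (0.796), Upk1b (0.622), Cp (0.616), Msr1 (0.615), Tlr2 (0.664), Gbp7 (0.666), Fcgr4 (0.588), Fcgr1 (0.547), Gpr34 (0.568), Tgfbr1 (0.837), Ctsc (0.663), Ctsl (0.71), Eif2ak2 (0.538), Vcam1 (0.58), Cd274 (0.649), Atp5g1 (0.753), Uqcrq (0.807), Rpsa (0.695), Rps2 (0.619), Tlr4 (0.786), B2m (0.755), P2ry12 (0.615) and P2ry13 (0.679).

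KO ns 6 was the lowest KO ns library for Hlf (0.607), Nlrc5 (0.59), Txnrd1 (0.731), Cdkn1a (0.598), Hsp90ab1 (0.541), Cx3cr1 (0.888) and Csf1r (0.673), and the highest for Tnfrsf17 (0.698), Ccl2 (0.534), Sod2 (0.622), Fcgr4 (0.592), Gpr34 (0.684), Gapdh (0.552), Ctsl (0.583), Asns (0.69), Nr1d2 (0.547), Uqcrq (0.714), Rpsa (0.683), Rps2 (0.693), Tlr4 (0.623), Cd14 (0.549), B2m (0.659), P2ry12 (0.643) and Trem2 (0.815). In KO ns 5, Dixon's ratio was exceeded for Socs3 (0.643), Pde4d (0.65), Cd274 (0.578) and Tmem119 (0.859), and in KO LPS 7 for Marco (0.553), Slc2a5 (0.665), Cx3cr1 (0.607) and Trem2 (0.58). KO ns 5, KO ns 6 and KO LPS 5 hold the high mitochondrial shares given above, whose part in these values was not tested.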

How the results depend on the processing

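Counts of genes called for KO LPS against KO ns moved by over 1.5 times from 3534 with set 1 alone (7865), set 2 alone (339), limma-voom with sample quality weights (9570), calls kept only from a 2-fold change upwards (1950) and without KO ns 5, KO ns 6 and KO LPS 5 (8832, chosen after seeing the data). Leaving out 1 library gave 3054 to 4822 calls, highest without KO LPS 5. DESeq2, RLE scaling, no filter, a mean of at least 5 CPM, all 33 libraries, no set covariate and no number 2 gave 2460 to 4381. The replicate block of library number gave 3960, and it pairs the libraries only by number: the mean r of same-numbered deviations was 0.170 over 8 pairs (lowest -0.459), and 3 of 8 KO ns libraries correlated best with their own number. The genotype-by-LPS difference had 11 calls with DESeq2.

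Of 93 named genes called, 88 were called in every leave-one-out fit, 93 in the 13 libraries and 45 under every setting. Of 2900 values of single genes, 13 changed sign, in Tlr4 and B2m, neither of them called. The log2 fold change of Tlr4 was at 0.17 with set 1 alone, 0.0059 with the replicate block, 0.16 with quality weights, 0.14 in the 13 libraries, 0.013 with set 2 of the 13, 0.30 without KO ns 6, 0.035 without KO LPS 6, 0.070 without KO LPS 7 and 0.038 without KO LPS 8. The log2 fold change of B2m was at -0.0255 with no set covariate, -0.205 with set 2 alone, -0.21 without number 2 and -0.0680 without KO LPS 5. List medians changed sign by more than the spread between libraries for costimulatory molecules, to 0.015 without a filter, 0.026 with set 1 alone and 0.011 in the 13 libraries, and for astrocyte markers, to 0.53 with set 1 alone. Other sign changes were within that spread. They were, in the 13 libraries, to 0.11 for purinergic genes, 0.31 for mitochondrially encoded genes, and 0.16, 0.43 and 0.33 for neutrophil, astrocyte and erythroid markers. Set 1 alone gave -0.024 for scavenger receptors, -0.11 for immediate early genes, -0.041 for integrins and 0.32 for mitochondrially encoded genes. Set 2 alone gave -0.047 for scavenger receptors, -0.067 for lysosomal genes, -0.19 for ribosomal proteins, 6.03e-04 for neutrophil markers and -0.20 for neuron markers. RLE scaling turned the median log2 fold change of lysosomal enzymes and membrane proteins to -0.0090 and the median log2 fold change of integrins and adhesion to -0.0099. Leaving out 1 library gave -0.310 to 0.295 for Tlr4 and -0.0680 to 0.774 for B2m. The cause was not tested. Depth limits genes at a few counts, such as Nos2 in KO ns, whose fold has no firm size.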
